A study of Mus musculus with 12 samples.

Results

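The comparison is of fibroblasts kept in WM-2474 for 240 h with fibroblasts kept in it for 96 h, over every gene of the count table that has a gene identifier. It used 6 of the 12 libraries of the series, 3 biological replicates at each time, chosen by their labels alone. The cells were primary mouse embryonic fibroblasts from wild-type C57BL/6 embryos at E13.5, labelled male, grown in DMEM with 10% fetal bovine serum under 3% oxygen. WM-2474, which the labels call an inactive control, was given at 10 µM for 96 h or 240 h. The other 6 libraries received the solvent DMSO for the same times and serve here as the background of culture time without the compound. Nothing in the labels says whether replicates came from separate embryos, so the p-values measure the spread between these libraries. No untreated cells at the start of culture and no active compound are among the samples analysed here.

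Embryonic fibroblasts secrete and cross-link the collagens and glycoproteins of connective tissue, and under tension or TGF-beta they take on contractile proteins and are then called myofibroblasts. In culture they slow their division as the CDK inhibitors of the INK4 and CIP families rise. Low oxygen delays that arrest. Growing cells also make their own membrane lipids through enzymes that the SREBP transcription factors switch on when sterols are scarce.

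WM-2474 libraries held 9172540 to 14279614 counts assigned to identified genes, and 16227 to 17054 genes were detected. Values below are CPM, counts scaled by library size and a TMM factor, and a floor of 3 counts was worth 0.210 to 0.327 CPM. All 12 fibroblast markers passed the filter on low counts, and together they held 33300 to 39000 CPM at 96 h and 53600 to 55500 CPM at 240 h. Most of that came from the matrix genes Col1a1, Col1a2 and Fn1, while Dcn, Lum and S100a4 overlapped between times. Markers of blood and vessel cells were low: macrophage and myeloid genes summed to 6.7 to 11.2 CPM, B and T lineage genes to 1.19 to 4.86 CPM and endothelial genes to 3.05 to 9.9 CPM over the 6 libraries. Epithelial and mesothelial markers fell from 53.5 to 77.7 CPM at 96 h to 23.4 to 27.9 CPM at 240 h, with 4 of 6 tested members lower and Epcam at 0 to 0.171 CPM. Neural and glial markers were not low, at 203 to 209 CPM and then 218 to 229 CPM, most of it from Nes, Tubb3 and Stmn2, with 1 of 8 tested members higher. Bone and cartilage cell markers summed to 91.2 to 179 CPM at 96 h and 67.4 to 124 CPM at 240 h. Most of that was cartilage collagen, Col2a1, with 84.7, 169 and 152 CPM and then 39.0, 98.2 and 78.1 CPM, which did not pass (adjusted p = 0.178). Each replicate number had less Col2a1 at 240 h, in DMSO as well, and the test did not pair libraries by number. In bulk RNA, fewer cells of a type and less RNA per cell cannot be told apart. On the first principal component of the 6 libraries, which held 60.8% of the variance, scores at 96 h ran from -24.1 to -23.5 and those at 240 h from 20.1 to 26.6. Among DMSO libraries, which enter the filter on low counts, the shared estimate of spread and the comparison of treatments, B and T lineage genes reached up to 22.5 CPM at 240 h.

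Between 96 h and 240 h, genes of the collagen matrix and of the contractile cytoskeleton rose, and genes of cell division and of cholesterol and fatty acid synthesis fell. Of 13499 genes tested, edgeR's quasi-likelihood test called 2147 higher at 240 h (15.9%) and 1999 lower (14.8%) at an adjusted p of 0.05, which is 30.7% in either direction. Counts of list members given below are to be read beside these shares. Most changes were small: the median size among called genes was 0.39 on the log2 scale, 242 genes were at least 2-fold higher (1.79%) and 280 at least 2-fold lower (2.07%), and 24 and 36 passed 4-fold. The libraries of both times did not overlap for 3922 of the 4146 called genes, beside 42.4% of all genes tested. The balance of the calls rests on the scaling. Scaled by library totals alone, the median of all genes moved from -0.004 to -0.14 on the log2 scale and the split became 1097 higher and 4391 lower, where TMM scaling had 51.8% of the calls higher.

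**Figure D1:**
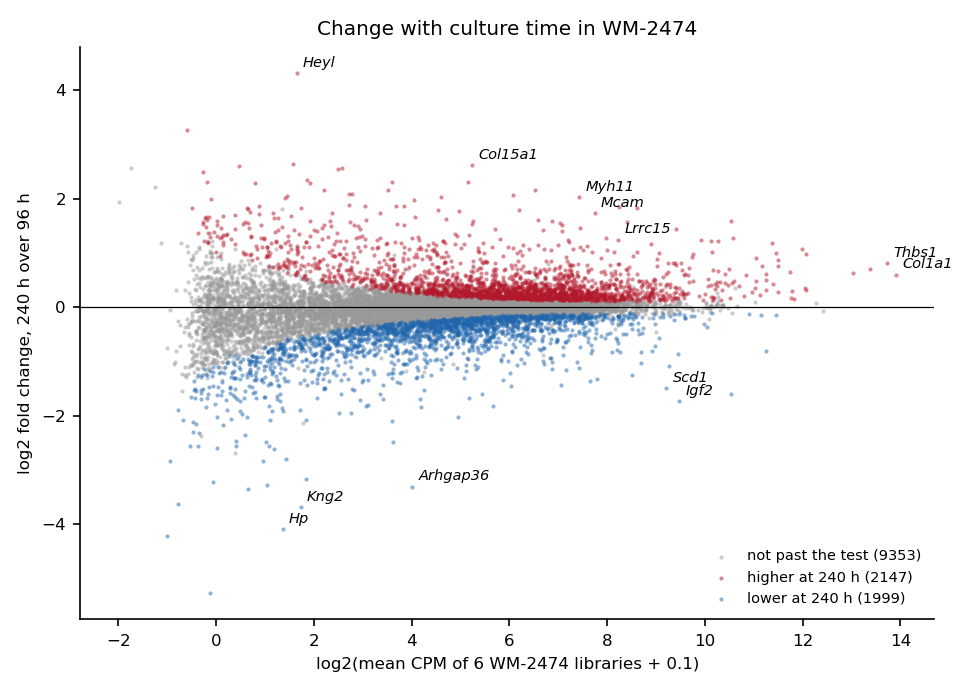
Log2 fold change of 240 h over 96 h (vertical) against the log2 of the mean CPM plus 0.1 of the 6 WM-2474 libraries (horizontal), 1 point per tested gene, with genes past the edgeR test in red (2147 higher) or blue (1999 lower). Most called genes lie close to 0, and a few such as Heyl at 4.32 and Arhgap36 at -3.31 stand far from it.

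The 4 genes proposed as markers of the comparison each separated the times without overlap. Mcam encodes an adhesion molecule of the immunoglobulin family that is known from pericytes and vessels, and its gene lies at chr9:44134658-44142727 (GRCm38.p6, as for the other gene positions). It had 99.9, 96.9 and 102 CPM at 96 h and 294, 349 and 347 CPM at 240 h, a log2 fold change of 1.73 ± 0.06 (SE; adjusted p = 3.26e-17). Col15a1 (chr4:47207655-47313167), which encodes the collagen that ties basement membranes to the fibres around them, had 8.98, 10.8 and 11.9 CPM and then 64.8, 64.1 and 64.4 CPM, a 6.17-fold rise. The 240 h values of Col15a1 were close together and far above the highest value at 96 h. Lrrc15 (chr16:30269302-30283254), a leucine-rich membrane protein known from myofibroblasts, had 186, 181 and 168 CPM at 96 h and 398, 447 and 425 CPM at 240 h (log2 1.25 ± 0.05, adjusted p = 2e-15). Scd1 (chr19:44394450-44407709), the desaturase that turns stearate into oleate, went the other way, from 892, 855 and 875 CPM to 302, 300 and 330 CPM (log2 -1.49 ± 0.05, adjusted p = 3.26e-17). Scd1 has close paralogs, and how reads shared with them were counted is not given in the sources used here. With DMSO the same genes changed by log2 1.74, 2.55, 1.12 and -1.48 for Mcam, Col15a1, Lrrc15 and Scd1.

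**Figure D2:**
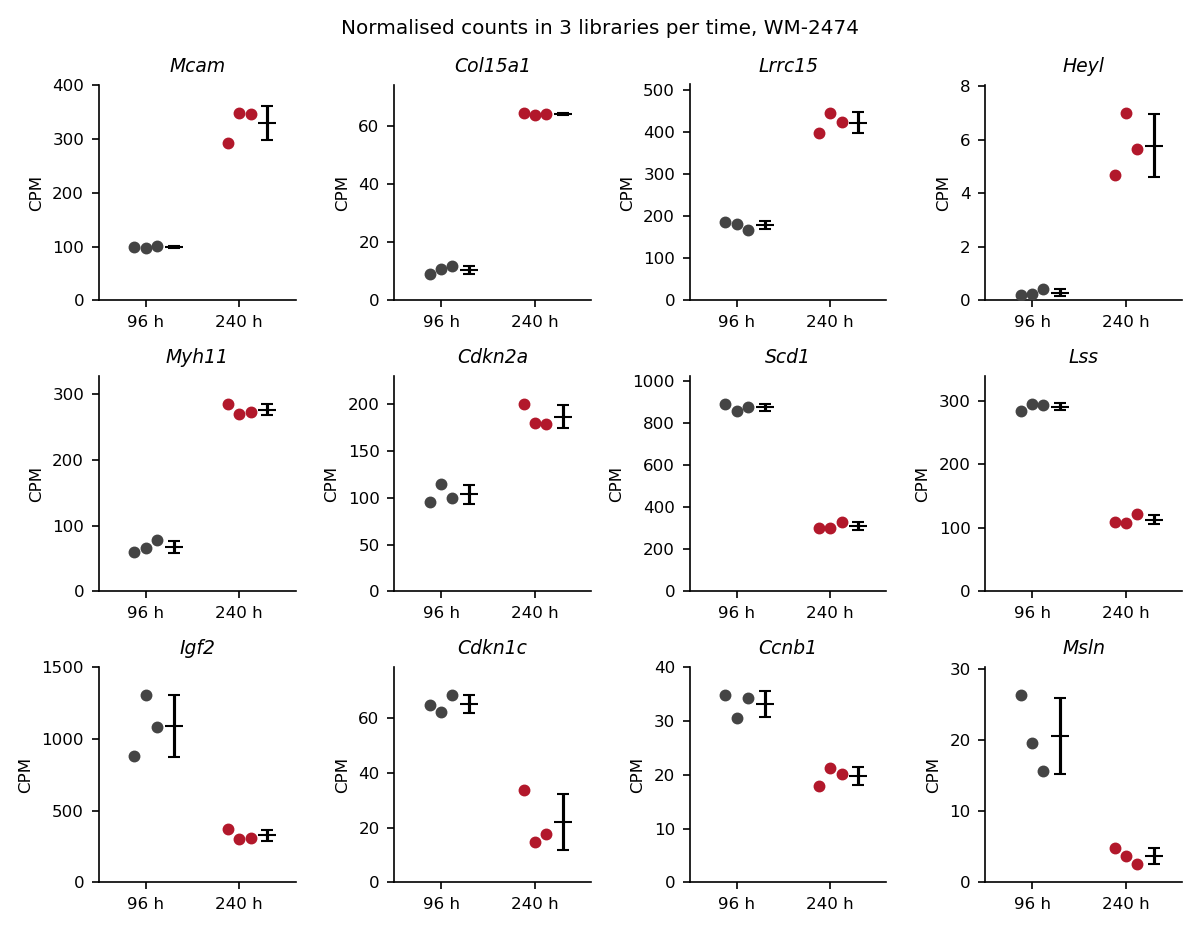
CPM of 12 genes in each WM-2474 library (points; grey 96 h, red 240 h), with the mean and SD of 3 libraries at the side of each group and every axis starting at 0. In all 12 panels the 3 libraries of 240 h lie wholly above or wholly below those of 96 h, as for Mcam (96.9 to 102 against 294 to 349 CPM).

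Matrix genes rose as a group. Of 31 collagen chains tested, 23 were higher (74.2%) and 0 lower, 7 of them at least 2-fold, with a median log2 fold change of 0.64 beside -0.004 for all genes. Collagen chains took 3.2 to 3.83% of all counts at 96 h and 5.12 to 5.36% at 240 h. The chains of the main fibrils rose moderately: Col1a1 had 10637, 14244 and 11730 CPM and then 18806, 18709 and 17917 CPM (1.51-fold, adjusted p = 0.00287), and Col3a1 had 1667, 2190 and 1792 CPM and then 4105, 3690 and 3521 CPM (2.00-fold, adjusted p = 4.53e-05). Replicate 2 was the highest of the 96 h libraries for both genes and still did not reach the later values. Col6a3, a chain of the beaded filaments around cells, rose from 764, 732 and 716 CPM to 2270, 2159 and 2230 CPM, a log2 fold change of 1.59 ± 0.06. The fibril-associated Col12a1 rose 1.83-fold and the basement membrane chain Col4a1 1.62-fold. Col10a1, the collagen of hypertrophic cartilage, went from 2.99, 7.31 and 2.48 CPM to 19.3, 24.1 and 11.6 CPM (adjusted p = 0.00953), at levels far lower per length (5.85 RPKM at 240 h) than Col1a1 (3924 RPKM).

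Enzymes that cross-link and hydroxylate collagen moved with the chains, 17 of 25 higher (68.0%) and 1 lower, with a median of 0.29. Loxl2, a lysyl oxidase of the extracellular space, rose from 570, 580 and 590 CPM to 1245, 1461 and 1407 CPM (log2 1.24 ± 0.05, adjusted p = 5.07e-16), and P4ha3, a prolyl hydroxylase subunit, rose 2.21-fold. The libraries of both genes stood apart. Lox itself was higher by only 1.22-fold (adjusted p = 0.000106).

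Among 32 elastic fibre and matricellular genes 16 were higher and 3 lower, and the list went from 3.75 to 3.9% of counts to 5.42 to 5.51%. The fibronectin gene Fn1 rose 1.64-fold, Sparc 1.69-fold, Tnc 1.41-fold and periostin, Postn, 2.26-fold. Thbs1, which encodes an activator of latent TGF-beta, had 9572, 10195 and 9852 CPM and then 16827, 17358 and 17619 CPM. Elastin, Eln, varied more at 240 h, with 350, 172 and 242 CPM after 90.2, 84.7 and 103 CPM (log2 1.45 ± 0.24, adjusted p = 0.00169). Replicate 1 held the most elastin and the libraries of both times still did not overlap. The CCN genes Ccn4 and Ccn2, secreted proteins that respond to TGF-beta and tension, rose 2.98-fold and 2.34-fold. Tgfbi (log2 -0.78) and Fbln1 (log2 -0.41) fell.

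Of 30 proteases and inhibitors of the matrix 17 were higher and 5 lower. Timp3, an inhibitor bound to the matrix, rose from 854, 917 and 896 CPM to 2017, 2185 and 2231 CPM (log2 1.27 ± 0.05, adjusted p = 2e-16). Mmp17 rose 2.42-fold and Adamts12 2.06-fold, whereas the aggrecan-cutting Adamts5 fell by 0.58 and Adamts1 by 0.47 on the log2 scale. Mmp2, the gelatinase of fibroblasts, had 245, 315 and 289 CPM and then 297, 277 and 276 CPM, with overlapping libraries (log2 0.00, adjusted p = 0.983).

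Basement membrane genes had 9 of 19 members higher and 1 lower, among them Lamb1 (1.56-fold), Nid1 (1.26-fold) and Npnt (1.81-fold), with Smoc2 lower (log2 -0.75). Small leucine-rich proteoglycans, which space collagen fibrils, had 6 of 11 higher and 2 lower. Asporin, Aspn, rose from 73.7, 70.8 and 66.7 CPM to 202, 182 and 218 CPM, and biglycan, Bgn, 1.57-fold. Decorin, Dcn, had 66.1, 56.8 and 69.9 CPM and then 105, 57.4 and 90.5 CPM and did not pass (adjusted p = 0.283), and its libraries overlapped. It passed without WM-2474 240 h replicate 2 (log2 0.61, adjusted p = 0.0437) and with the replicate number as a block (adjusted p = 0.00208 over all libraries and 0.0263 over those of WM-2474). With library totals the medians of these 6 matrix lists remained above 0, at 0.13 to 0.50.

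Adhesion receptors had 17 of 33 members higher and 4 lower. The matrix-binding integrin Itga11, a collagen receptor, went from 131, 215 and 175 CPM to 564, 627 and 646 CPM (3.54-fold, adjusted p = 0.000265). Itga8, which binds nephronectin and fibronectin, rose from 32.9, 30.4 and 36.8 CPM to 167, 125 and 156 CPM, and Itga1, another collagen receptor, 2.23-fold. The laminin receptor Itga3 fell from 49.3, 50.8 and 49.3 CPM to 12.7, 13.0 and 10.8 CPM (log2 -2.02 ± 0.11, adjusted p = 5.44e-12). Each of these 4 genes had libraries that did not overlap. Itga3 is also expressed by epithelia, whose markers fell beside it as given above, and the part of other cells in its fall was not tested.

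Contractile genes rose almost without exception. Of 27 smooth muscle and actin cytoskeleton genes tested, 25 were higher (92.6%) and 0 lower, 8 at least 2-fold, with a median of 0.50, and the list went from 1.87 to 1.97% of counts to 2.61 to 2.74%. Acta2, the smooth muscle actin that defines myofibroblasts, had 2766, 2869 and 3005 CPM and then 5731, 5577 and 5802 CPM (1.98-fold, adjusted p = 4.01e-14). Tagln, an actin cross-linker, rose 1.88-fold, calponin, Cnn1, 2.42-fold and Lmod1, which nucleates actin, 2.15-fold. Myh11, the myosin heavy chain of smooth muscle, rose from 60.0, 66.5 and 77.8 CPM to 286, 271 and 274 CPM (log2 2.03 ± 0.11) and the enteric actin Actg2 from 117, 129 and 148 CPM to 432, 536 and 452 CPM. No library of 96 h reached any of 240 h for these genes. Myocardin, Myocd, the coactivator of serum response factor in smooth muscle, stood at 3.32, 3.11 and 3.41 CPM and then 6.94, 6.32 and 7.40 CPM (2.08-fold, adjusted p = 1.9e-05). Srf itself was 1.28-fold higher (adjusted p = 8.97e-06), and the coactivator Mrtfa had a log2 fold change of 0.08 that did not pass (adjusted p = 0.279). With library totals 22 of the 27 were higher and 1 lower.

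Serum response factor binds the CArG box, a short run of A and T between CC and GG. In promoter windows of 300 bases from RefSeq, 250 before to 50 after each start, the box was found on either strand in 5 of 26 windows of the contractile list (19.2%) and in 1.63% of all 32851 windows. This motif was added after values had been seen. The stretches upstream of Myl9, a myosin light chain that rose 2.00-fold, and of Srf are shown because they hold the box, in capitals, close to genes that rose together. They are at chr2:156775294-156775463 on the plus strand and chr17:46556163-46556272 on the minus strand (GRCm38.p6), written 5′ to 3′ and ending at the base before the start.
Myl9: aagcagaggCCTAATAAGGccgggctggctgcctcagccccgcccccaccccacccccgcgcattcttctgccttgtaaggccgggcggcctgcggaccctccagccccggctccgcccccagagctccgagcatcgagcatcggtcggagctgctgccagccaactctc
Srf: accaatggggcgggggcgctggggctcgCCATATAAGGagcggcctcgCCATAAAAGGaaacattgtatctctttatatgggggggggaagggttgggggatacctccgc
Myl9 has a box from -161 to -152, and Srf has a pair, from -82 to -73 and from -62 to -53. A match describes letters in a window, not a bound site.

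Genes of mural cells, the pericytes and smooth muscle around vessels, had 7 of 11 members higher and 1 lower. The 9 mural markers summed to 434 to 472 CPM and then 846 to 952 CPM, most of it from Cspg4 and Mcam. Rgs5, a pericyte marker, was called higher but had only 1.14 to 2.20 CPM at 240 h. Besides Mcam, the PDGF receptor Pdgfrb rose 1.31-fold, the proteoglycan Cspg4 from 250, 262 and 273 CPM to 403, 439 and 463 CPM, and the endothelin receptor Ednra 2.33-fold. Abcc9, a potassium channel subunit known from pericytes, went the other way (log2 -1.15 ± 0.32, adjusted p = 0.00652), and 3 members did not pass. Pdgfra, which marks fibroblasts, was the single fibroblast marker to fall (log2 -0.57 ± 0.05, adjusted p = 2.89e-09). The sum of the skeletal muscle markers went from 137 to 147 CPM to 270 to 330 CPM, nearly all of it Acta1 (2.20-fold) and desmin. Desmin is also in the contractile list. Of the same markers, Myod1 and Myog were at most 0.332 CPM at 96 h and at most 0.076 CPM at 240 h. Among fibroblast activation genes 9 of 17 were higher and 3 lower: Fap rose 2.04-fold, and Pdpn, Dpp4 and Cd34 fell, Cd34 from 27.4, 18.7 and 23.8 CPM to 12.3, 8.61 and 12.4 CPM.

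Notch signalling passes between touching cells, from ligands such as Jag1 to receptors whose cut tail turns on Hey and Hes genes. The largest fold change among the genes named by size was that of Heyl, such a target, with 0.199, 0.252 and 0.427 CPM at 96 h, close to the floor, and 4.67, 7.01 and 5.67 CPM at 240 h (log2 4.32 ± 0.47, adjusted p = 1.31e-06). The ligand Jag1 had 41.7, 50.9 and 50.1 CPM and then 126, 161 and 147 CPM (3.06-fold), and the receptor Notch3, known from mural cells, 33.0, 43.8 and 42.3 CPM and then 94.7, 74.5 and 89.0 CPM (2.17-fold). Hey2, another target, went from 1.06, 1.01 and 1.02 CPM to 4.01, 5.71 and 2.43 CPM, and Notch1 was 1.43-fold higher. The libraries of these 5 genes did not overlap. The partner of the cut receptor on DNA, Rbpj, fell by 0.27 on the log2 scale, and of 14 Notch genes 8 were higher and 3 lower.

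TGF-beta ligands are made as latent complexes that matrix proteins store. Of 22 genes of this pathway 11 were higher and 3 lower, 4 at least 2-fold. All 3 ligand genes rose: Tgfb1 1.48-fold, Tgfb2 from 22.5, 29.2 and 29.6 CPM to 54.5, 60.6 and 50.6 CPM, and Tgfb3 from 151, 180 and 169 CPM to 325, 358 and 353 CPM (2.07-fold, adjusted p = 2.82e-06). The receptors Tgfbr2 (log2 -0.24) and Tgfbr3 (log2 -0.87) fell. In the list of plasminogen activators and serpins 7 of 13 were higher and 1 lower, Plau 1.55-fold and Plat 1.48-fold among them. With library totals the TGF-beta list had 8 members higher and 7 lower.

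Of 27 BMP genes 9 were lower (33.3%), 5 of them at least 2-fold, 5 were higher (18.5%) and 13 did not pass. Id1 and Id2, targets that block differentiation factors, fell by 0.83 and 1.14 on the log2 scale, Id1 from 88.8, 75.6 and 90.3 CPM to 48.8, 45.1 and 49.8 CPM. The inhibitory Smad6 fell from 45.8, 45.8 and 45.5 CPM to 26.4, 28.0 and 26.2 CPM, and the ligand gene Gdf10 was 3.50-fold lower. The antagonist Grem1 had a log2 fold change of 0.00 (adjusted p = 0.994).

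In the Wnt list 11 of 40 were higher (27.5%, beside 15.9% of all genes) and 7 lower (17.5%, beside 14.8%). The list median of 0.03 turned to -0.10 with library totals. Ligand genes split: Wnt9a and Wnt4 rose 2.36-fold and 2.03-fold and Wnt5a 1.33-fold, and Wnt10b fell from 12.8, 14.1 and 9.99 CPM to 5.64, 4.72 and 4.16 CPM. The secreted inhibitor Sfrp2 and the enhancer Rspo2 fell by 1.22 and 1.14 on the log2 scale. The target Axin2 had a log2 fold change of -0.10 and did not pass.

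In the list of PDGF, FGF, IGF and HGF signalling 8 of 33 were higher and 10 lower, with a median of 0.05 that was -0.09 with library totals. Igf2, the growth factor of the embryo, had 879, 1309 and 1085 CPM and then 374, 303 and 308 CPM (3.32-fold lower, adjusted p = 0.000197). Replicate 2 held most at 96 h, and the lowest value at 96 h was still above the highest at 240 h. Igfbp7, which binds insulin-like growth factors, rose 1.90-fold and Igfbp5 was 1.28-fold lower. The receptors Fgfr2 and Met fell by 0.58 and 0.40 on the log2 scale, and Spry1, which dampens FGF signals, rose 1.45-fold.

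**Figure D3:**
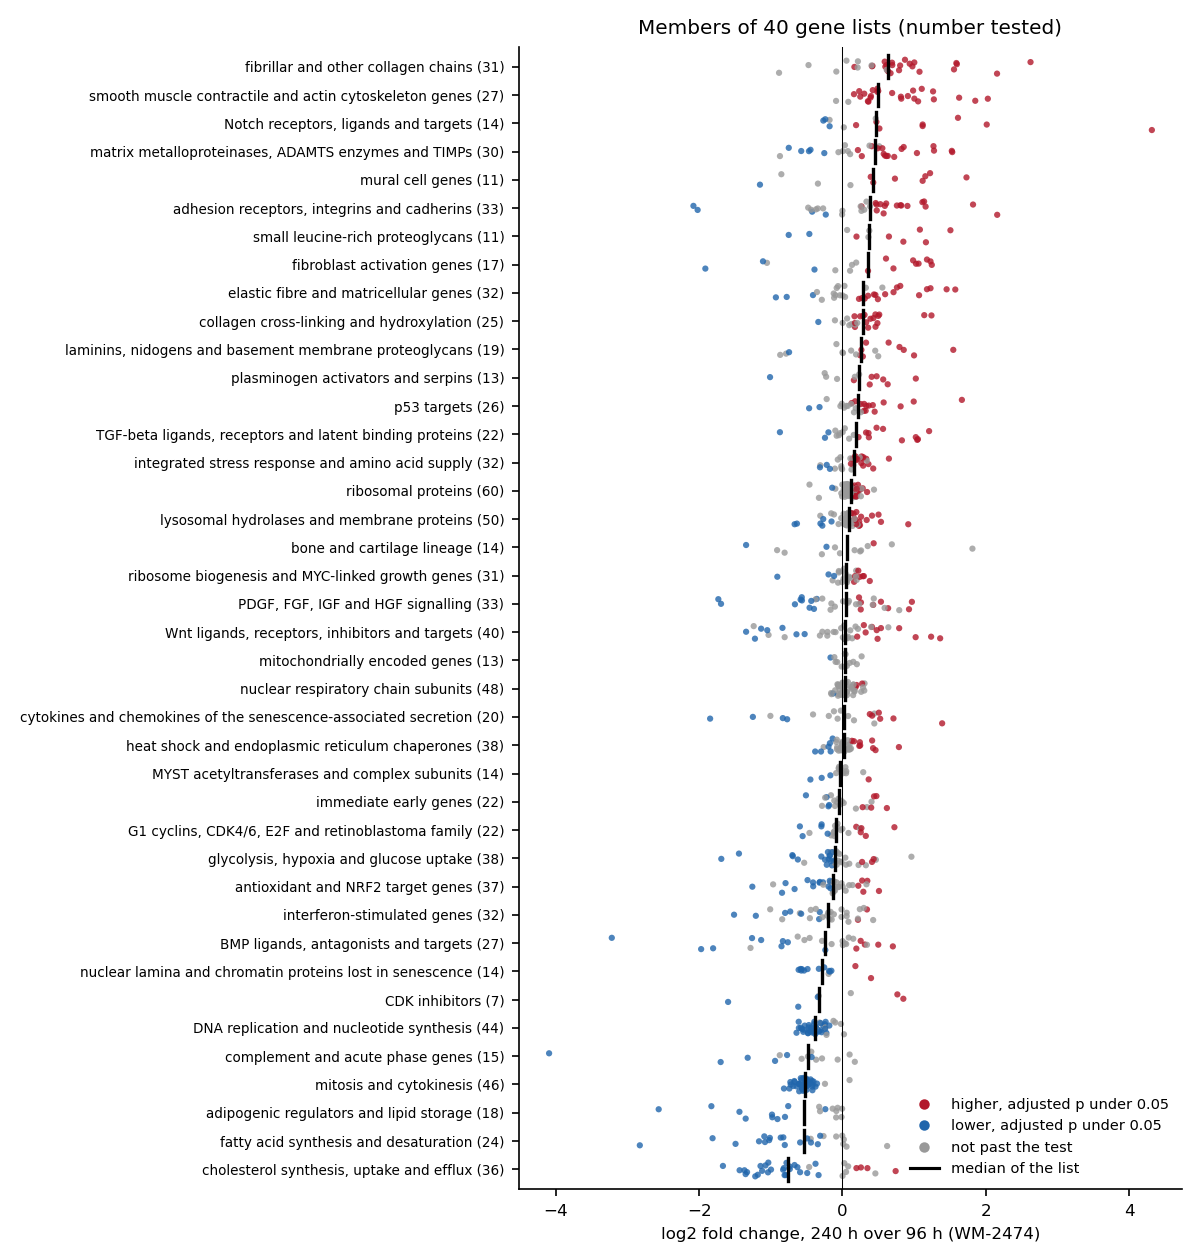
Log2 fold change of 240 h over 96 h (horizontal) for each tested member of 40 gene lists (rows, sorted by median, with the number tested), red or blue where the edgeR test was passed and grey where not, with the list median as a bar. Collagen chains (median 0.64) and contractile genes (0.50) are at the top and cholesterol synthesis (-0.76) at the bottom, while mitosis genes lie tightly around -0.53.

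Division genes fell together and by little. Of 46 mitosis and cytokinesis genes tested 44 were lower (95.7%) and 0 higher, none by 2-fold, with a median of -0.53, and the list went from 0.296 to 0.315% of counts to 0.184 to 0.202%. Cyclin B1, Ccnb1, which starts mitosis with Cdk1, had 34.9, 30.5 and 34.2 CPM and then 18.0, 21.3 and 20.1 CPM (1.67-fold lower, adjusted p = 1.03e-07). Cdk1 had 84.6, 74.9 and 76.7 CPM and then 55.1, 60.3 and 57.9 CPM (1.36-fold lower), and the proliferation marker Mki67 241, 226 and 231 CPM and then 147, 160 and 163 CPM (1.48-fold lower). Libraries of both times stood apart for all 3, and at 240 h these transcripts were still well above the floor. The kinesins Kif20a and Kif2c, which work on the spindle, fell by 0.60 and 0.72, and Top2a, which untangles chromosomes, by 0.50 on the log2 scale.

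Of 44 genes of DNA replication and nucleotide synthesis 36 were lower (81.8%) and 0 higher, with a median of -0.38. The replicative helicase subunit Mcm2 had 78.4, 81.8 and 80.8 CPM and then 57.8, 62.2 and 67.1 CPM, and Rrm2, the regulated subunit of ribonucleotide reductase, was 1.44-fold lower. The sliding clamp Pcna was 1.24-fold lower. Rrm1, the large subunit of the same reductase, was 1.14-fold lower (adjusted p = 0.00873), a call that was lost without WM-2474 240 h replicate 1 (adjusted p = 0.0667).

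Genes of late division often carry a CHR element, TTTGAA, near the start, with CCAAT boxes, CCAAT, upstream of it. Searched on both strands of the RefSeq windows, TTTGAA was found in 29 of 41 windows of the mitosis list (70.7%), against 17.9% of all windows, and CCAAT in 32 of 41 (78%), against 37.4%. Of the 46 tested members 39 had a window, 26 windows held both motifs, and the motifs shared bases in 1. In the replication list the E2F site GGCGGGAA was in 7 of 40 windows (17.5%), against 2.19% of all windows and 3.9% of those of tested genes. Cdc20, the activator of the complex that ends mitosis, was 1.46-fold lower. The stretches below are those of Cdk1, Cdc20, Top2a and Rrm1, with the motifs in capitals. They are at chr10:69352913-69353022, chr4:118437344-118437453, chr11:99024190-99024299 (all minus strand) and chr7:102441585-102441694 (plus strand) of GRCm38.p6, from RefSeq, and each ends at the base before the start.
Cdk1: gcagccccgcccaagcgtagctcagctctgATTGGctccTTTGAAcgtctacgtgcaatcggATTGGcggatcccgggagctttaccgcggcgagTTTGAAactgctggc
Cdc20: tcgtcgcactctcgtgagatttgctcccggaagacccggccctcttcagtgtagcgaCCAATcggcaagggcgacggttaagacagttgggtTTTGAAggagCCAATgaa
Top2a: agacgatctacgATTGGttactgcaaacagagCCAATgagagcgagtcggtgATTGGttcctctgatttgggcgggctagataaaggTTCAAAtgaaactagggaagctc
Rrm1: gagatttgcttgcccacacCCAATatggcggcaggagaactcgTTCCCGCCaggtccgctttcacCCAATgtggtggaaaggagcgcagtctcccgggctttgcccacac
In Cdk1 a CHR element lies from -15 to -10 and another from -71 to -66, in Cdc20 from -18 to -13 and in Top2a, on the other strand, from -23 to -18. Not every CCAAT box lies upstream of a CHR element. Cdc20 has a CCAAT box from -8 to -4, and in Cdk1 a CCAAT box from -48 to -44 follows the farther CHR element. Rrm1 carries its E2F site, also on the other strand, from -67 to -60 between CCAAT boxes.

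CDK inhibitors did not move as a group. Cdkn2a, whose locus encodes p16 and p19, had 95.4 to 115 CPM in the 96 h libraries and 178 to 200.3 CPM in those of 240 h (1.80-fold, adjusted p = 3.84e-05). Counts per gene do not separate its transcripts. Cdkn1a, the p53 target p21, had 378, 403 and 374 CPM and then 682, 642 and 640 CPM (1.70-fold, adjusted p = 5.45e-13). The libraries of both genes were apart. Cdkn2b overlapped between times (log2 0.12, adjusted p = 0.169). Cdkn1b, or p27, fell from 53.7, 55.4 and 57.1 CPM to 36.6, 36.3 and 35.3 CPM, and the imprinted Cdkn1c, or p57, from 64.8, 62.2 and 68.6 CPM to 33.7, 14.8 and 17.6 CPM (log2 -1.60 ± 0.26, adjusted p = 0.00154). Among G1 cyclins and E2F genes 5 of 22 were higher and 5 lower (22.7% each, beside 15.9% and 14.8% of all genes). Ccnd2 rose 1.65-fold, and E2f8, a repressor made in S phase, was 1.51-fold lower.

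Of 26 p53 targets 14 were higher (53.8%) and 2 lower, with a median of 0.22. Perp, which encodes a membrane protein of cell junctions and death, had 8.11, 7.98 and 7.94 CPM and then 26.1, 24.8 and 25.6 CPM (3.17-fold, adjusted p = 6.26e-13). Fas, a death receptor, was 1.99-fold and Mdm2, which degrades p53, 1.25-fold higher, while Bbc3 and Gdf15 did not pass (adjusted p = 0.911 and 0.936). The p53 gene itself, Trp53, had a log2 fold change of -0.06 that did not pass (adjusted p = 0.431); with library totals it passed as lower (log2 -0.19, adjusted p = 0.0037). Nuclear lamina and chromatin genes, only some of them known to be lost in senescent cells, had 11 of 14 members lower (78.6%) and 2 higher. Lmnb1, which encodes lamin B1, fell from 99.6, 105 and 111 CPM to 66.5, 70.2 and 74.7 CPM, and Hmgb2 by 0.57 on the log2 scale. Lamin A, Lmna, was 1.13-fold higher, a call lost with library totals (log2 0.05, adjusted p = 0.374). Secreted cytokines and chemokines linked to senescence did not share a direction, with 6 of 20 higher and 4 lower. The chemokine Cxcl12 fell from 451, 560 and 529 CPM to 225, 202 and 220 CPM and Cxcl5 from 30.7, 35.5 and 19.1 CPM to 11.7, 7.16 and 4.97 CPM, whereas Ccl7 (1.33-fold) and Il33 (2.62-fold, at 2.59 to 3.69 CPM) rose.

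Genes of lipid synthesis fell. Of 36 genes of cholesterol synthesis, uptake and efflux 26 were lower (72.2%), 12 at least 2-fold, and 4 higher, with a median of -0.76, and the list went from 0.754 to 0.785% of counts to 0.427 to 0.45%. Lss, which closes the sterol rings, had 285, 296 and 293 CPM and then 110, 108 and 121 CPM (log2 -1.37 ± 0.05, adjusted p = 1.2e-16), and Fdps, which makes farnesyl diphosphate, 234, 237 and 235 CPM and then 108, 109 and 107 CPM. The entry enzyme Hmgcs1 fell from 618, 599 and 621 CPM to 339, 335 and 376 CPM. The libraries of both times were apart for these 3 genes, and those of Fdps differed least within a time. Insig1, which holds SREBP back when sterols are plentiful and is itself an SREBP target, was 2.52-fold lower. The factors themselves fell less, Srebf1 by 0.31 and Srebf2 by 0.38 on the log2 scale. The 4 genes that rose were Scap, the escort of SREBP, and 3 genes of export and storage: Abca1 and Abcg1, which pump cholesterol out, were 1.27-fold and 1.67-fold higher, and Soat1, which esterifies it, rose by log2 0.26. With library totals 2 of the list were higher, and Soat1 did not pass (log2 0.12, adjusted p = 0.0916).

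Of 24 fatty acid synthesis and desaturation genes 16 were lower (66.7%), 8 at least 2-fold, and 0 higher, with a median of -0.54. Acss2, which makes acetyl-CoA from acetate, had 75.9, 83.0 and 78.2 CPM and then 23.4, 20.7 and 23.7 CPM (3.51-fold lower). Acly, which makes it from citrate, fell from 841, 826 and 851 CPM to 389, 384 and 418 CPM, and Fasn, the synthase, was 1.82-fold lower. Tested members that did not pass were Scd4, Acacb, Fads3, Elovl1, Elovl4, Elovl7, Me1 and Acsl5. The elongase Elovl6 was 2.24-fold and the desaturase Fads2 2.02-fold lower. Adipogenic genes fell as well, 10 of 18 lower and 0 higher, among them Pparg (1.97-fold lower), Cebpa (from 15.1, 15.9 and 15.3 CPM to 7.92, 4.65 and 4.74 CPM) and Plin4, which coats lipid droplets (3.55-fold lower). Adipocyte markers summed to 1.79 to 2.46 CPM at 96 h and 0.217 to 0.533 CPM at 240 h, and their part in these falls was not tested.

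**Figure D4:**
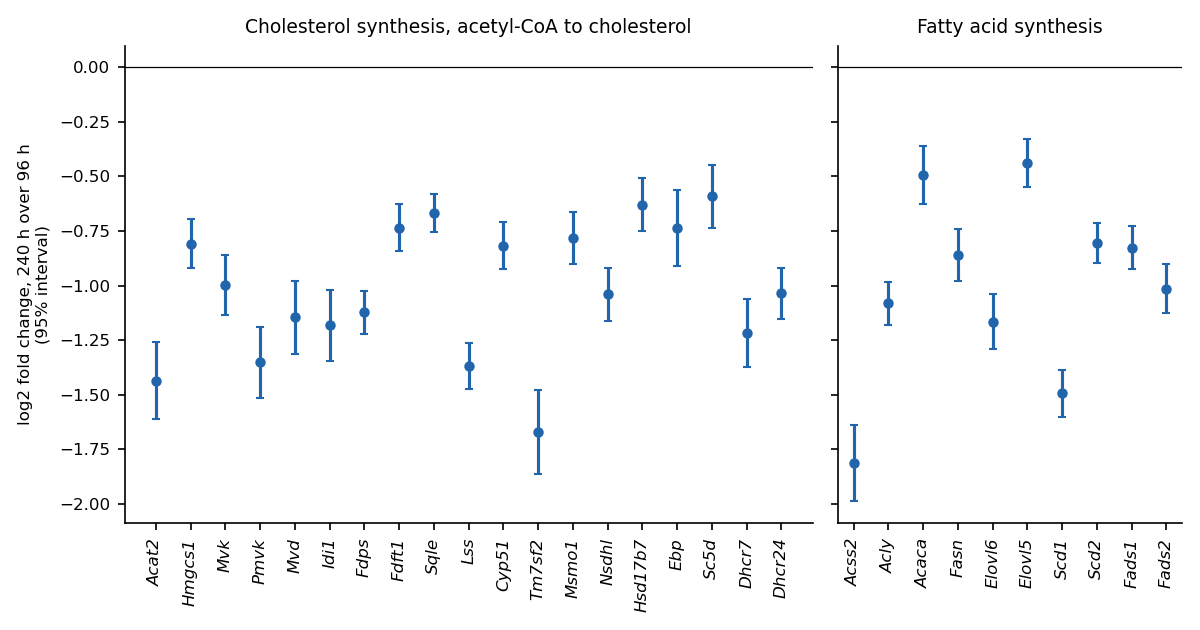
Log2 fold change of 240 h over 96 h with its 95% interval for enzymes of cholesterol synthesis in pathway order (left) and 10 chosen enzymes of fatty acid synthesis (right) in WM-2474. The fatty acid enzymes shown run from -1.81 for Acss2 to -0.44 for Elovl5. Other lower members of that list, and the 8 tested members that did not pass, are not drawn. The lowest value of the list, -2.83, is among those left out.

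The SREBP element TCACNCCAC, searched on both strands, was in 1 of 35 windows of the cholesterol list (2.86%), against 1.24% of all windows, and CCAAT was in 20 of 35 (57.1%), against 37.4%. No match says only that these letters are not in this window. The single window with the element was that of Hmgcs1, shown here with both motifs in capitals, at chr13:119690201-119690350 on the plus strand (GRCm38.p6, RefSeq).
Hmgcs1: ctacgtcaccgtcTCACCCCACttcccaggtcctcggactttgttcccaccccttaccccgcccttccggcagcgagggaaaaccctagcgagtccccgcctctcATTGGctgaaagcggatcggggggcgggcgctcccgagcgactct
Its element lies from -137 to -129 and its CCAAT box from -45 to -41, counted from the RefSeq start. Of the stretches shown in this report, only for Hmgcs1 did the bases after the start not match the opening of an annotated transcript.

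Glycolysis and hypoxia genes had 16 of 38 members lower (42.1%) and 3 higher. Aldoc, a glycolytic aldolase, fell from 27.6, 28.2 and 26.1 CPM to 9.87, 6.78 and 9.25 CPM, and the hypoxia-induced peptide gene Adm from 88.4, 93.5 and 106 CPM to 39.2, 31.1 and 36.2 CPM. The glucose transporter Slc2a1 had a log2 fold change of 0.04 and did not pass (adjusted p = 0.653), and Ero1a, an oxidase of the endoplasmic reticulum, rose 1.33-fold. Antioxidant genes had 13 of 37 lower and 5 higher, with the metallothionein Mt2 1.79-fold lower and the peroxidase Gpx3 1.42-fold higher, while the NRF2 targets Nqo1 and Hmox1 did not pass. Genes of the integrated stress response and amino acid supply had 16 of 32 higher and 3 lower, which became 7 higher and 9 lower with library totals. Asns, which makes asparagine, was 1.26-fold higher and the importer Slc38a2 1.24-fold lower, and the factor Ddit3 did not pass. Atf4, the factor of this response, did not pass either, but passed as lower with library totals (log2 -0.24, adjusted p = 5.01e-05), with a filter of 1 CPM in 3 libraries (adjusted p = 0.0459) and without WM-2474 96 h replicate 3 (adjusted p = 0.0485).

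Complement and acute phase genes had 6 of 15 lower and 0 higher: ceruloplasmin, Cp, fell from 14.6, 17.7 and 16.6 CPM to 5.42, 5.18 and 4.28 CPM and clusterin, Clu, was 2.50-fold lower. Haptoglobin, Hp, had 2.99, 6.97 and 4.01 CPM at 96 h and 0.651, 0.0762 and 0.116 CPM at 240 h, where 2 libraries were below the floor. Interferon-stimulated genes had 7 of 32 lower (21.9%, beside 14.8% of all genes) and 2 higher (6.25%, beside 15.9%). Gbp2 was 2.85-fold and H2-K1 1.49-fold lower, and Ifit1 did not pass. Immediate early genes had 5 of 22 higher (22.7%) and 4 lower (18.2%), not far from the shares of all genes. Ier5 was 1.36-fold and Dusp1 1.32-fold higher and Egr1 1.42-fold lower.

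Of 50 lysosomal genes 17 were higher and 6 lower, with a median of 0.09 that was -0.04 with library totals. Ctsk, the collagen-degrading cathepsin, rose from 99.8, 100.2 and 96.0 CPM to 192, 181 and 187 CPM, Glb1, the beta-galactosidase used as a stain for senescence, was 1.18-fold higher, and Gpnmb was 1.55-fold lower. Glb1 did not pass with library totals. Of 60 ribosomal protein genes 15 were higher and 1 lower with a median of 0.11, and with library totals 0 were higher and 6 lower. Many ribosomal protein genes have near-identical pseudogenes, so their counts are uncertain. Nuclear respiratory chain subunits (3 of 48 higher, 1 lower) and mitochondrially encoded genes (0 of 13 higher, 1 lower) had medians of 0.03, and mitochondrial transcripts made up 1.33 to 1.57% of counts in the 6 libraries. Heat shock and endoplasmic reticulum chaperones had 9 of 38 higher and 6 lower around a median of 0.02, which was -0.12 with library totals. Among 14 MYST acetyltransferase and complex genes 1 was higher (7.14%) and 3 lower (21.4%), beside 15.9% and 14.8% of all genes. Kat6a and Kat6b had log2 fold changes of 0.04 and -0.02 that did not pass. Bone and cartilage lineage genes had 1 of 14 higher and 2 lower.

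Other genes with the largest changes belonged to no list. Cacna1g, a T-type calcium channel subunit, had 22.4, 27.3 and 27.7 CPM and then 119, 100.3 and 105 CPM (log2 2.07 ± 0.09, adjusted p = 1.7e-13). Fndc1, a secreted protein with fibronectin domains, rose from 9.71, 14.4 and 12.4 CPM to 43.6, 74.7 and 59.1 CPM, and the semaphorin Sema5b from 4.26, 4.37 and 3.33 CPM to 24.3, 16.4 and 19.7 CPM. The glycosyltransferase gene Galnt16 rose 5.89-fold, Ramp1, a partner of the receptor for the peptide CGRP, 4.50-fold, and Nppb, which encodes a natriuretic peptide, 5.08-fold, from 0.588 to 1.71 CPM at 96 h to 5.32 to 6.78 CPM at 240 h. Lurap1l was the next most strongly supported rise, from 73.5, 76.0 and 71.3 CPM to 196, 194 and 197 CPM. Times did not overlap in any of these genes, which was a condition for naming genes by the size of their rise.

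The largest fall among genes of at least 5 CPM was that of Kng2, a kininogen gene, with 5.05, 7.65 and 5.21 CPM and then 0.759, 0.305 and 0.347 CPM, the lower of these near the floor. Arhgap36, known as an activator of hedgehog signalling, fell from 25.7, 27.9 and 34.3 CPM to 2.17, 3.28 and 3.24 CPM (log2 -3.31 ± 0.33, adjusted p = 3.72e-05). Hhip, a decoy receptor and target of hedgehog, was 4.24-fold lower. The transcription factor gene Sim2 fell from 19.2, 17.0 and 22.3 CPM to 4.99, 3.35 and 5.67 CPM, and Enpep, an aminopeptidase that cuts angiotensin, was 9.02-fold lower. Msln, which encodes the mesothelial protein mesothelin, fell from 26.4, 19.7 and 15.7 CPM to 4.88, 3.66 and 2.54 CPM. Keratin 19, Krt19, another marker of that group, was 1.80-fold lower, and whether fewer mesothelial cells were present was not tested.

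The DMSO libraries show what the same time did without WM-2474. There 2364 genes were higher (17.5%) and 2330 lower (17.3%) at 240 h, and 3218 genes were called in the same direction in both treatments, 77.6% of the WM-2474 calls and 68.6% of the DMSO calls, with 0 called in opposite directions. Of the 522 genes at least 2-fold changed in WM-2474, 518 had the same sign in DMSO. The test of the difference between treatments called 0 of 13499 genes (0.00%) in edgeR, with 625 genes at an unadjusted p under 0.05 and a smallest adjusted p of 0.977. DESeq2 and limma-voom also called 0, with 297 and 806 genes at that unadjusted level, and the count was 0 in the edgeR fit without both DMSO 240 h libraries that held most B-lineage RNA, DMSO 240 h replicates 1 and 2, where 412 genes reached it. The intervals of the difference were narrow for the markers: -0.17 to 0.16 for Mcam, -0.20 to 0.35 for Col15a1, -0.03 to 0.28 for Lrrc15 and -0.16 to 0.14 for Scd1 on the log2 scale. Among the 2-fold genes the median size of the difference was 0.20. The smallest p-values belonged to Cox6a1, a respiratory chain subunit (0.38 ± 0.09), and to Mdn1, a ribosome assembly factor (-0.39 ± 0.09), neither of which passed (adjusted p = 0.977 for each). The edgeR test took WM-2474 and DMSO libraries as unpaired. At 96 h some genes were alike by replicate number. Col1a1 had 10637, 14244 and 11730 CPM in WM-2474 and 10898, 14205 and 12260 CPM in DMSO, but kept no common order at 240 h. With the replicate number as a block over both times edgeR also called 0, with 718 genes at that unadjusted level. Pairing of treatments within a time was not tested. A missed threshold does not show that the time effect was the same in both treatments.

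**Figure D5:**
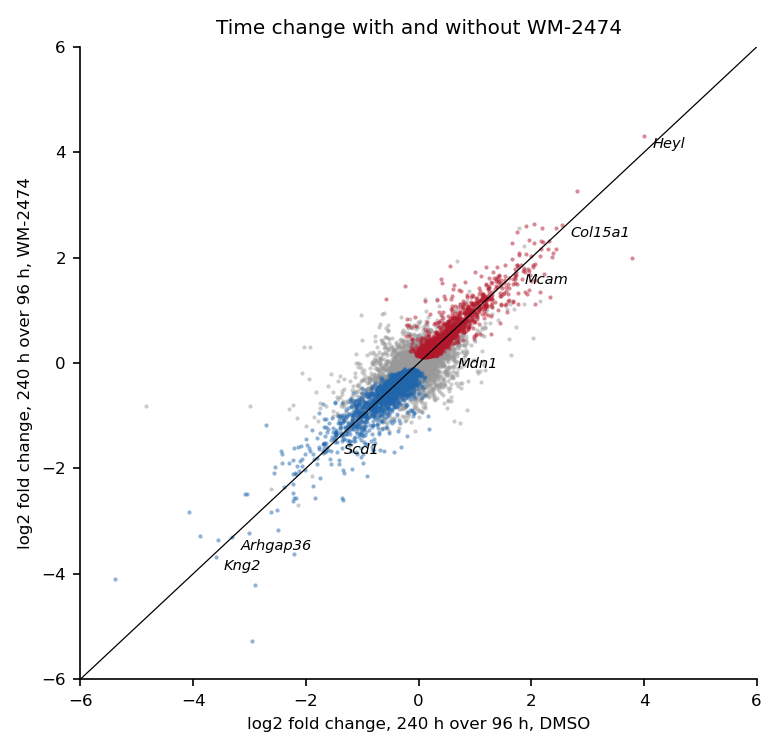
Log2 fold change of 240 h over 96 h with WM-2474 (vertical) against the same with DMSO (horizontal), 1 point per gene, coloured by the WM-2474 call as red (higher), blue (lower) or grey, with the line of equal change. Genes with large changes lie near the line, such as Heyl (4.32 and 4.01) and Scd1 (-1.49 and -1.48).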

How the data were processed

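mRNA libraries of 12 fibroblast cultures were made with a stranded kit, per the labels' protocols. The authors deposited raw counts per gene, with exon lengths in bases. The submitters' processing notes name featureCounts and mm10. Aligner, versions, annotation and strand setting are not given in the sources used here. Overlapping, antisense and near-identical genes are uncertain. Columns were assigned to samples by the treatment, time and number in their names. Of 27179 entries, 874 without identifier (0.547 to 0.648% of counts) were left out; 25275 of 26305 identifiers (96.1%) got a symbol from RefSeq on GRCm38.p6. Replicate pairs differed beyond sampling noise (chi-square per degree of freedom 2.05 to 5.25).

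Genes were filtered with filterByExpr by group, scaled by TMM, and fitted with edgeR 4.0.16 over all 12 libraries, 1 coefficient per group (common biological variation 5.22%), with two-sided quasi-likelihood tests and Benjamini-Hochberg adjustment over 13499 genes. The script was tested on simulated data. An exact permutation of 3 against 3 libraries cannot go below p = 0.1. ± is the SE for log2 fold changes, and folds are 2 to the power of the fitted value. RPKM is CPM per kilobase of the deposited exon length.

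The members and the 40 pathway and 12 marker lists were chosen with earlier results of these data known, and support nothing on their own. Named are the 4 markers; the 15 genes with the largest rise and fall that passed, had at least 5 CPM and had libraries apart; the 5 smallest p-values in each direction; core members and the 3 smallest p-values per direction of each list; and the 3 per direction for the difference between treatments. Genes of these sets with copies or uninformative names are left out, and some others are not reported here. Myh11, Actg2, Myocd, Srf, Mrtfa, Cdc20, Rrm1, Fas, Trp53, Ccn4, Ccn2, Insig1, Elovl6, Srebf1, Srebf2, Id2, Notch1, Acta1, Krt19, Col2a1, Nes, Tubb3, Stmn2, Scap, Col1a2, Vim, S100a4, Xist, the fatty acid genes listed as not passing and the imprinted and Hox genes were chosen after their values were seen. Alternatives were RLE factors, library totals, other filters, DESeq2 1.42.0, limma-voom (limma 3.58.1), fits of only the WM-2474 libraries, a replicate block, a test against a fold of 1.2 and leaving out each library. A fit without DMSO 240 h replicates 1 and 2 was added after seeing the data. R 4.3.3, Python 3.11.15, pandas 2.3.3 and matplotlib 3.10.9 were used.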

Additional observations from a re-analysis of the deposited data

How the results depend on the processing

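Under scaling by library totals the counts were 1097 higher and 4391 lower, and 424 genes were at least 2-fold lower. Rpl3, a ribosomal protein gene, had a log2 fold change of 0.02 that did not pass and one of -0.11 (adjusted p = 0.0425) with library totals. The test against a fold of 1.2 left 700 genes higher and 732 lower, since it asks for more than a change from 0. The difference between treatments gave 2 genes higher with no filter on low counts, where 19626 genes were tested, and the cause was not tested. Leaving out each WM-2474 library in turn gave 1750 to 2162 genes higher and 1482 to 1881 lower. Between times in WM-2474, deviations from the group mean correlated by -0.00783, 0.0804 and 0.0664 for libraries with the same replicate number. For libraries with different numbers they correlated by -0.0818 to 0.0113. This check over all genes did not compare treatments. Single genes could follow the number: Col2a1 was lowest in replicate 1 and highest in replicate 2 at both times, in WM-2474 and in DMSO. At 96 h Col1a1, S100a4, Stmn2 and Msln also kept their order of replicates between treatments, whereas Vim, Pdgfra and Lum did not. Whether the number marks a shared culture was not tested. With the replicate number as a block the counts were 2226 higher and 2099 lower over all libraries and 1832 and 1776 over the WM-2474 libraries alone; in the latter fit Cdkn1c (adjusted p = 0.0598), Eln (0.0648) and Lama4 (0.0695) did not pass, and Dcn passed in both. DESeq2 called 1862 higher and 1587 lower, limma-voom 2281 and 2050. Of 351 named genes 229 kept their side of the threshold in every alternative run and 210 their sign as well. Calls were lost in 265 and gained in 42 of 5967 refits. Depth limits what can be said of genes near 3 counts per library, such as Heyl at 96 h and Hp at 240 h.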

Other observations

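Genes known for imprinting and embryonic growth were looked at after Igf2 and Cdkn1c had been seen to fall, so their list is no independent support. Of 21 tested, 12 were lower and 2 higher, with a median log2 fold change of -0.75 beside -0.004 over all genes. H19, the non-coding neighbour of Igf2, had 1957, 2601 and 2189 CPM at 96 h and 892, 641 and 683 CPM at 240 h (log2 -1.61 ± 0.16, edgeR adjusted p = 7.03e-05). The libraries of H19 did not overlap, and replicate 2 was highest at 96 h as for Igf2. Peg3, a zinc finger gene, fell from 263, 255 and 269 CPM to 160, 130 and 151 CPM, and Plagl1, a transcription factor of this network, was 2.08-fold lower. Grb10, an adaptor that restrains insulin signals, was 1.23-fold lower. Igf2r, which clears IGF2, rose by log2 0.26 and Sgce by 0.31. Dlk1 had 235, 203 and 258 CPM and then 282, 186 and 224 CPM and did not pass. With library totals 16 of the list were lower and 1 higher, and Sgce did not pass.

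Hox genes, which hold the positional identity of fibroblasts, were chosen in the same way. Of 31 tested 9 were lower, 6 of them at least 2-fold, and 3 higher, with a median of -0.25. Among the lower were Hoxa5, with 28.1, 29.7 and 31.2 CPM and then 13.3, 11.7 and 12.6 CPM (2.37-fold lower), and Hoxa3, Hoxa6 and Hoxa7 at log2 -1.04, -1.36 and -1.05. Hoxc8 and Hoxd8 were 1.23-fold and 1.35-fold higher, Hoxc8 not with library totals. With DMSO the log2 fold changes of Hoxa5 and H19 were -1.39 and -1.94.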
